A study of Mus musculus with 12 samples.

Results

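The mitosis and spindle genes described here are 39 mouse genes that carry a cell from entry into mitosis to cytokinesis: mitotic kinases, the chromosomal passenger complex, checkpoint and anaphase factors, cyclins, kinetochore proteins, kinesin motors, spindle and midzone proteins, Foxm1, Mki67 and a pair of cytokinesis genes. They were named by gene symbol, with earlier results of these data known. All 39 were found among the 21960 genes listed for each tumor, and each had a value above 0 in each of the 12 tumors.

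The study treated female C57BL/6 mice in which the mouse mammary tumor virus promoter drives the polyoma middle T oncoprotein (PyMT) in the mammary gland, so that all 12 tumors share strain, sex and transgene. RNA of 1 snap-frozen whole mammary tumor made each library, and there were 3 tumors in each of 4 groups: IgG1 (a control antibody), anti-PD-1 (clone 4H2, which blocks the PD-1 receptor of T cells), DOX/IgG1 and DOX/anti-PD-1, where DOX is doxorubicin, a topoisomerase II poison used as chemotherapy. Mice without doxorubicin were treated once their first tumor had a diameter of 0.6 cm, with 20 mg/kg of antibody and then 10 mg/kg on days 6, 12 and 18. Mice with doxorubicin were treated once it had 1 cm, with 5 mg/kg of doxorubicin weekly for 5 weeks and 10 mg/kg of antibody on the day after it. Doxorubicin therefore cannot be told apart from the size of the first tumor at the start, antibody dose and schedule, and the labels give neither age nor the size of the sequenced tumors.

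As background, Cdk1 bound to cyclin B drives entry into mitosis, Aurora and Polo kinases build the spindle, and a checkpoint at the kinetochores holds back the anaphase-promoting complex until each chromosome is attached. Most of these genes are transcribed in G2 and M phase and low in resting cells, under the MuvB complex with B-Myb and FoxM1, which binds CHR elements near the start of transcription, and NF-Y, which binds CCAAT elements there. Their transcripts are widely used as a measure of proliferation in breast tumors.

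The deposited values are log2(TPM + 1), where TPM is a level scaled to transcript length and to the library's total. TPM keeps no sequencing depth, so the depth is unknown and no counting interval can be given. The listed TPM summed to between 609418 and 725506 per tumor. Some libraries stood apart from the rest. IgG1 replicate 1 alone had the lowest value of the 12 tumors in 18.6% of the 14735 genes with 1 TPM or more in at least 3 tumors. DOX/IgG1 replicate 1 had the fewest genes above 0, 13856 where the other tumors had 14230 to 15426, its column header carries the word test, and its summed erythroid markers reached 2346 TPM where those of the other tumors lay between 41.9 and 297 TPM. The column headers of the 3 DOX/anti-PD-1 tumors end differently from those of the other tumors, a feature that cannot be told apart from the group. The epithelial markers Epcam, Krt8, Krt18, Krt19, Krt7, Cdh1, Cldn3 and Cldn4 were above 0 in each tumor, and their summed level lay between 2203 TPM in DOX/IgG1 replicate 1 and 4008 TPM in DOX/IgG1 replicate 3. In whole tumors, fewer dividing cells and less RNA of these genes per cell cannot be told apart.

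Because these genes share a known mode of control and most had their lowest value in the same tumor, their promoters were searched for the CHR motif of MuvB and the CCAAT motif of NF-Y in the 250 bases before the start of transcription. The table of RefSeq promoters (GRCm38.p6 build) used here does not hold every gene. By symbol it held 32 of the 39 genes, as 34 promoters, since Ect2 and Prc1 each have 2 starts in it, and it lacked Aurkb, Ccna2, Kif20a, Tpx2, Spc24, Incenp and Foxm1, whose promoters were not searched. A CHR motif (TTTGAA or TTCGAA, on either strand) was in 12 of the 34 promoters (35.3%) and in 17.2% of all 32851 promoters. A CCAAT motif (CCAAT, or ATTGG on the other strand) was in 26 of the 34 (76.5%) and in 33.9% of all promoters. Both motifs were in 11 of the 34 (32.4%), against 6.02% of all promoters, and a CHR with at least 2 CCAAT was in 7 (20.6%), against 1.67%. No CHR overlapped a CCAAT in any of the 34, while 2 of the 6 CCAAT matches listed in Ube2c share bases. Cdk1 and Mki67 are shown as members that hold 2 CHR and 3 CCAAT motifs each, and Birc5 as a member in which neither was found. Each is written 5′ to 3′ along its gene's strand, and capitals mark the CHR and CCAAT letters.
Cdk1 chr10:69352913-69353162 (minus strand): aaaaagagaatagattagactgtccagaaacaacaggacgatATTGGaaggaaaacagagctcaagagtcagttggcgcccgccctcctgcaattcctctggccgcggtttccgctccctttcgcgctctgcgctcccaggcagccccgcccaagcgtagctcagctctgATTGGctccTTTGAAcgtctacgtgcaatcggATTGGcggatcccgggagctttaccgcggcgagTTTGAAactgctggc
Mki67 chr7:135716380-135716629 (minus strand): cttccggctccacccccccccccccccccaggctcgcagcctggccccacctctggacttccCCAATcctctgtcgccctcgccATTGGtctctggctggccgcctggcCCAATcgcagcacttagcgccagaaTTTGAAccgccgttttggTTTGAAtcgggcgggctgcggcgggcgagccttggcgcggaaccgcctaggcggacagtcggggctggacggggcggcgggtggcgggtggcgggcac
Birc5 chr11:117848987-117849236 (plus strand): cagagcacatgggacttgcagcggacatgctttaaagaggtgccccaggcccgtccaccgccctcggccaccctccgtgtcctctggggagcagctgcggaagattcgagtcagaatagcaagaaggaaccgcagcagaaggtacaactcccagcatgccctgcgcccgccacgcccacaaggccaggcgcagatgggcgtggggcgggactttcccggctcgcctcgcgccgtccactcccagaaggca
In the Cdk1 promoter the CHR letters begin 71 and 15 bases before the start and the CCAAT letters 208, 80 and 48 bases before it. In Mki67 the CHR letters begin at 116 and 98 bases and the CCAAT letters at 188, 166 and 141 bases. A match describes the letters and does not show that a factor binds there. A link between these motifs and the levels of the genes in any tumor was not tested.

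The mean over the 39 genes of log2(TPM + 1) was 4.12, 4.44 and 4.40 in the IgG1 tumors, replicates 1 to 3, with a group mean of 4.32 ± 0.18 (SD, n = 3). In the anti-PD-1 tumors it was 4.41, 4.78 and 4.39, with a group mean of 4.53 ± 0.22 (SD, n = 3). The DOX/IgG1 tumors had means of 4.67, 3.14 and 3.86, or 3.89 ± 0.77 (SD, n = 3), and the DOX/anti-PD-1 tumors had 4.85, 4.69 and 3.75, or 4.43 ± 0.59 (SD, n = 3). The 6 tumors without doxorubicin thus lay between 4.12 and 4.78. Of the 6 doxorubicin tumors, 3 lay below all of them (DOX/IgG1 replicates 2 and 3 and DOX/anti-PD-1 replicate 3), 1 lay above all of them (DOX/anti-PD-1 replicate 1), and 2 lay within their range. The range over the 12 tumors was 1.71 on the log2 scale. The 4 groups overlapped, and their means differed by less than the SD of the DOX/IgG1 tumors.

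**Figure D1:**
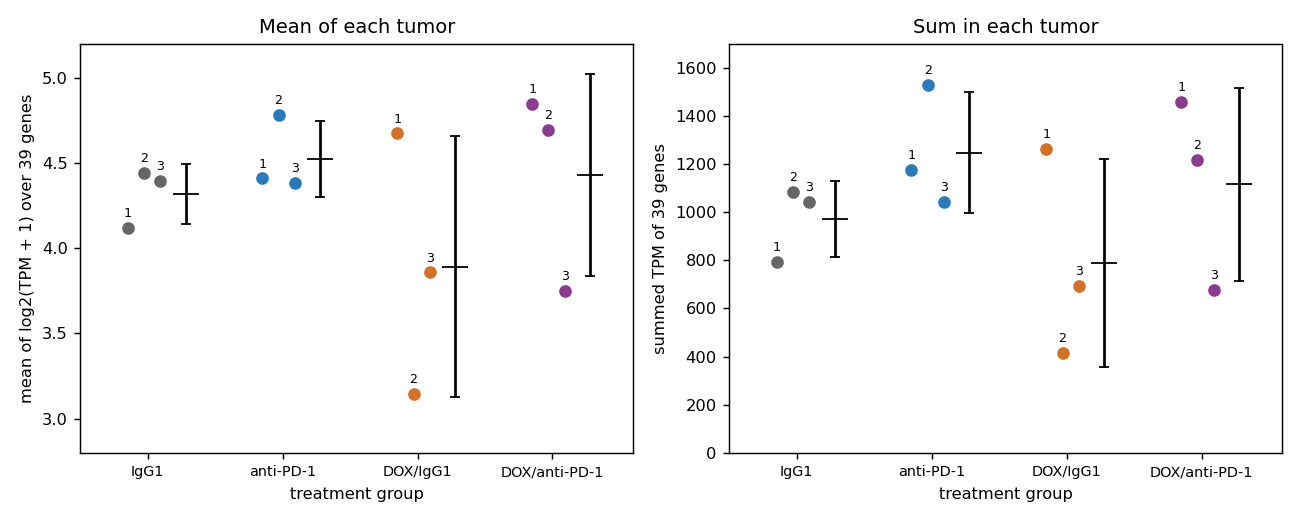
Left, the mean of log2(TPM + 1) over the 39 genes in each tumor (points, with replicate numbers), and right, their summed TPM, by treatment group; lines and bars are the group mean and SD (n = 3). The DOX/IgG1 tumors spread from 3.14 to 4.67 on the left scale, wider than the IgG1 tumors at 4.12 to 4.44.

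On the TPM scale the 39 genes summed to 792, 1085 and 1044 TPM in the IgG1 tumors and to 1176, 1528 and 1041 TPM in the anti-PD-1 tumors. The sums were 1262, 414 and 694 TPM in the DOX/IgG1 tumors and 1459, 1217 and 676 TPM in the DOX/anti-PD-1 tumors. DOX/IgG1 replicate 2 thus held the lowest sum of the 12 tumors and anti-PD-1 replicate 2 the highest, while on the log2 scale DOX/anti-PD-1 replicate 1 was highest.

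DOX/IgG1 replicate 2 had the lowest value of the 12 tumors in 27 of the 39 genes (69.2%), against 3.98% of all genes tested, where ties, most of them at 0, were counted for no tumor. DOX/anti-PD-1 replicate 3 was lowest in 7 (17.9%), against 10.6% of all genes, and DOX/IgG1 replicate 3 in 3 (7.69%), near the 5.17% of all genes. IgG1 replicate 1 and anti-PD-1 replicate 1 were lowest in 1 each, against 18.6% and 10.2%. Within the DOX/IgG1 group, replicate 1 was highest in 35 of the 39 genes and replicate 2 lowest in 33, against 35.2% and 25.5% of all genes. Within the DOX/anti-PD-1 group, replicate 3 was lowest in 34, against 36.4%. Set against the 6 tumors without doxorubicin, DOX/IgG1 replicate 2 lay below all 6 in 31 of the 39 genes and above all 6 in 1, where 10.2% and 26.9% of all genes tested did so. DOX/anti-PD-1 replicate 3 lay below all 6 in 21 and above in 0, against 17.2% and 25.1% of all genes. DOX/IgG1 replicate 3 lay below in 16 and above in 2, against 11.9% and 26.4%. DOX/anti-PD-1 replicate 1 lay above all 6 in 18 genes (46.2%) and below in 0, against 19.1% and 13.4% of all genes. DOX/IgG1 replicate 1 lay above in 13 (33.3%) and below in 3, against 24.6% and 16.8%, and DOX/anti-PD-1 replicate 2 above in 11 (28.2%) and below in 1, against 24.0% and 5.22%, so for these 2 tumors the share above was near that of all genes. The median SD within a group, on the log2 scale, was 0.83 for the 39 genes and 0.43 for all genes in DOX/IgG1, and 0.65 and 0.43 in DOX/anti-PD-1. Without doxorubicin it was 0.36 and 0.40 in IgG1 and 0.40 and 0.34 in anti-PD-1. The median ratio of the highest to the lowest tumor of a group, in TPM, was 3.23 for the 39 genes in DOX/IgG1, 2.47 in DOX/anti-PD-1, 1.83 in anti-PD-1 and 1.62 in IgG1. No test was made of these spreads.

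**Figure D2:**
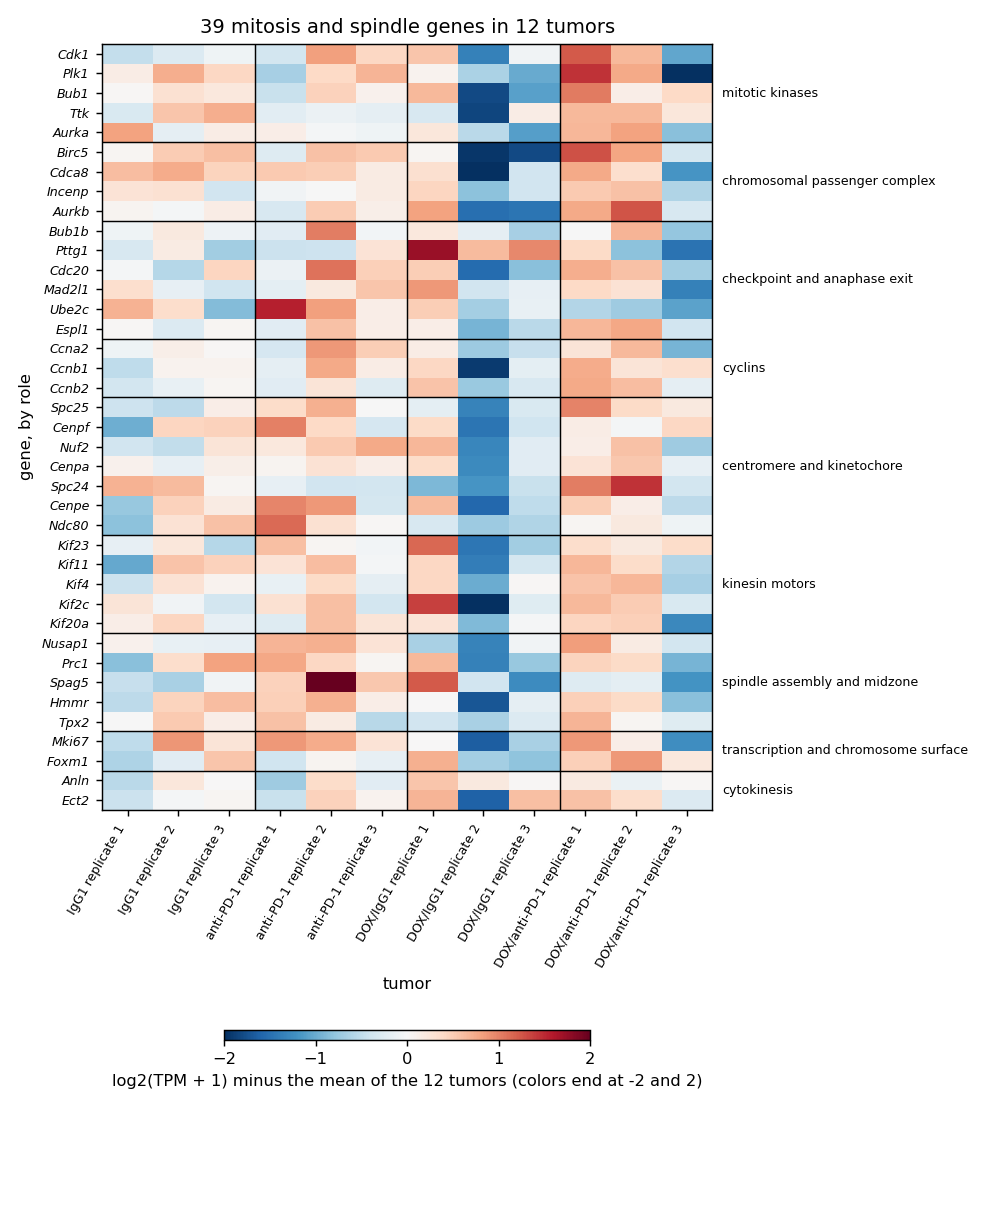
Each of the 39 genes (vertical axis, grouped by role) in each of the 12 tumors (horizontal axis), as log2(TPM + 1) minus that gene's mean over the 12 tumors, with colors ending at -2 and 2. The column of DOX/IgG1 replicate 2 is blue in nearly every role and holds the lowest tumor of 27 genes, while Pttg1 and Anln do not follow it.

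The mitotic kinases start and order the division. Cdk1 (ENSMUSG00000019942), the kinase of mitotic entry and the most abundant of the 5, measured 22.3, 25.6 and 29.4 TPM in IgG1 tumors, 24.1, 56.2 and 42.1 in anti-PD-1, 46.6, 11.7 and 29.8 in DOX/IgG1 and 74.9, 49.6 and 14.7 in DOX/anti-PD-1. The lowest and the highest Cdk1 values of the 12 were both in doxorubicin tumors, and all 4 groups overlapped. Plk1, the Polo kinase of spindle poles and cytokinesis, ranged from 3.20 TPM in DOX/anti-PD-1 replicate 3 to 56.5 TPM in DOX/anti-PD-1 replicate 1, a 17.6-fold range within 1 group. Aurka, the Aurora kinase of the spindle poles, ranged from 4.35 to 19.2 TPM. Bub1, a kinase that loads checkpoint proteins onto kinetochores, ranged from 3.14 to 28.5 TPM. For Ttk, the kinase that starts checkpoint signalling, the range was 2.21 to 17.9 TPM. Aurka was lowest in DOX/IgG1 replicate 3, and Bub1 and Ttk in DOX/IgG1 replicate 2.

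The chromosomal passenger complex corrects faulty attachments and then moves to the midzone. Birc5 (ENSMUSG00000017716), or survivin, which tethers the complex to the centromere, measured 24.9, 34.5 and 37.0 TPM in IgG1 tumors, 20.0, 36.7 and 34.9 in anti-PD-1, 24.9, 5.53 and 6.16 in DOX/IgG1 and 59.7, 42.5 and 18.6 in DOX/anti-PD-1. DOX/IgG1 replicates 2 and 3 were the lowest tumors of the 12, whereas DOX/IgG1 replicate 1 was level with IgG1 replicate 1. Cdca8 (ENSMUSG00000028873), or borealin, measured 33.3, 36.2 and 29.3 TPM in IgG1, 30.8, 30.2 and 23.9 in anti-PD-1, 26.8, 2.14 and 16.0 in DOX/IgG1 and 36.4, 27.0 and 8.76 in DOX/anti-PD-1. All 3 DOX/IgG1 tumors lay below all 3 IgG1 tumors for Cdca8. Aurkb, the kinase of the complex, ranged from 3.0 to 26.0 TPM, with its lowest values in DOX/IgG1 replicates 2 and 3. Incenp, the scaffold, ranged from 6.14 to 17.9 TPM.

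The checkpoint and anaphase genes time the separation of the chromosomes. Bub1b (ENSMUSG00000040084), or BubR1, part of the complex that holds back Cdc20, measured 18.3, 22.5 and 18.1 TPM in IgG1 tumors, 16.5, 40.7 and 18.7 in anti-PD-1, 22.6, 17.0 and 11.9 in DOX/IgG1 and 19.5, 31.7 and 11.1 in DOX/anti-PD-1. Anti-PD-1 replicate 2 was its highest tumor and the groups overlapped. Pttg1 (ENSMUSG00000020415), or securin, the inhibitor of separase, measured 9.12, 13.2 and 6.76 TPM in IgG1, 8.39, 8.47 and 14.2 in anti-PD-1, 40.8, 18.5 and 23.6 in DOX/IgG1 and 15.5, 6.17 and 3.54 in DOX/anti-PD-1. The DOX/IgG1 tumors were the 3 highest of the 12 for Pttg1, against the order of most of the 39 genes. Ube2c (ENSMUSG00000001403), the ubiquitin-conjugating enzyme of the anaphase-promoting complex, measured 8.59, 6.52 and 2.25 TPM in IgG1, 16.4, 9.45 and 5.47 in anti-PD-1, 7.30, 2.70 and 4.35 in DOX/IgG1 and 2.93, 2.59 and 1.82 in DOX/anti-PD-1. All 3 DOX/anti-PD-1 tumors lay below all 3 anti-PD-1 tumors for Ube2c. Cdc20, the activator of that complex, ranged from 3.56 to 27.2 TPM. Mad2l1, a checkpoint inhibitor of Cdc20, was lowest in DOX/anti-PD-1 replicate 3 at 2.73 TPM. Espl1, or separase, was the least abundant of the 39 genes, with 1.23 to 6.23 TPM.

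Cyclins A and B are the partners of Cdk1. Ccna2 (ENSMUSG00000027715), the most abundant of the 3, measured 38.1, 44.1 and 41.5 TPM in IgG1 tumors, 31.8, 75.1 and 57.6 in anti-PD-1, 45.0, 24.1 and 29.1 in DOX/IgG1 and 48.5, 64.0 and 20.9 in DOX/anti-PD-1. The 3 lowest values were those of DOX/anti-PD-1 replicate 3 and DOX/IgG1 replicates 2 and 3. Ccnb1, a cyclin B, ranged from 7.29 TPM in DOX/IgG1 replicate 2 to 52.0 TPM in anti-PD-1 replicate 2. Ccnb2, the other cyclin B, ranged from 7.18 TPM in DOX/IgG1 replicate 2 to 22.2 TPM in DOX/anti-PD-1 replicate 1.

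At the kinetochore, Ndc80, Nuf2, Spc24 and Spc25 form the complex that grips microtubules, on chromatin marked by the histone variant Cenpa. Spc25 (ENSMUSG00000005233) measured 33.7, 31.1 and 49.8 TPM in IgG1 tumors, 58.8, 74.3 and 44.8 in anti-PD-1, 39.1, 17.2 and 36.5 in DOX/IgG1 and 91.0, 59.1 and 52.1 in DOX/anti-PD-1. All 3 DOX/anti-PD-1 tumors lay above all 3 DOX/IgG1 tumors. Spc24 (ENSMUSG00000074476), its partner, measured 25.1, 24.1 and 15.5 TPM in IgG1, 13.5, 11.4 and 11.5 in anti-PD-1, 7.71, 6.13 and 10.8 in DOX/IgG1 and 31.7, 42.9 and 11.5 in DOX/anti-PD-1. For Spc24 the IgG1 tumors lay above both the anti-PD-1 and the DOX/IgG1 tumors, and DOX/anti-PD-1 replicates 1 and 2 were the highest of the 12. Nuf2 ranged from 8.08 to 36.8 TPM. Ndc80 ranged from 4.21 TPM in IgG1 replicate 1 to 19.2 TPM in anti-PD-1 replicate 1. Cenpa ranged from 6.68 to 25.8 TPM. Cenpe, a kinesin that brings chromosomes to the spindle equator, ranged from 4.42 to 30.6 TPM. For Cenpf, a large kinetochore protein, the range was 7.83 to 48.1 TPM. DOX/IgG1 replicate 2 was the lowest tumor for 6 of these 7 genes, all but Ndc80.

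Of the kinesin motors, Kif23 (ENSMUSG00000032254), which bundles midzone microtubules in centralspindlin, measured 49.9, 65.7 and 37.3 TPM in IgG1 tumors, 85.5, 57.4 and 54.2 in anti-PD-1, 125, 19.9 and 34.3 in DOX/IgG1 and 71.4, 64.3 and 72.7 in DOX/anti-PD-1. The DOX/IgG1 tumors held both its highest and its lowest value, and the DOX/anti-PD-1 tumors lay close together. Kif2c, which removes tubulin from microtubule ends, had the widest range of the 39 genes, from 1.16 TPM in DOX/IgG1 replicate 2 to 26.8 TPM in DOX/IgG1 replicate 1 (23.1-fold). Kif11, which pushes the spindle poles apart, ranged from 8.63 to 38.6 TPM. Kif4, a motor on chromosome arms, ranged from 5.08 to 18.0 TPM. Both were lowest in DOX/IgG1 replicate 2. Kif20a, a motor of cytokinesis, was lowest in DOX/anti-PD-1 replicate 3 at 2.73 TPM and highest in anti-PD-1 replicate 2 at 12.8 TPM.

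Among the spindle and midzone genes, Nusap1 (ENSMUSG00000027306), which bundles spindle microtubules near chromosomes, measured 77.2, 65.7 and 64.9 TPM in IgG1 tumors, 118, 120 and 88.7 in anti-PD-1, 46.2, 28.3 and 69.2 in DOX/IgG1 and 131, 81.7 and 56.5 in DOX/anti-PD-1. The anti-PD-1 tumors all lay above the IgG1 tumors for Nusap1. Spag5 (ENSMUSG00000002055), or astrin, which keeps kinetochores attached, measured 36.6, 31.96 and 47.9 TPM in IgG1, 69.6, 242 and 73.6 in anti-PD-1, 119, 38.5 and 20.5 in DOX/IgG1 and 42.3, 44.2 and 21.6 in DOX/anti-PD-1. The value in anti-PD-1 replicate 2 was the highest of any of the 39 genes in any tumor. Tpx2, which activates Aurora A on the spindle, ranged from 14.6 to 38.1 TPM. Prc1, which crosslinks midzone microtubules, ranged from 22.8 to 105 TPM. Hmmr, a spindle assembly factor, ranged from 7.19 to 43.3 TPM. These 3 genes were lowest in DOX/IgG1 replicate 2.

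Mki67 (ENSMUSG00000031004), which coats mitotic chromosomes and is the source of the Ki-67 stain, was the most abundant of the 39 genes by its mean over the tumors, 93.6 TPM. It measured 57.01, 152 and 98.1 TPM in IgG1 tumors, 149.7, 137 and 98.2 in anti-PD-1, 81.5, 25.2 and 51.7 in DOX/IgG1 and 149.7, 89.4 and 33.9 in DOX/anti-PD-1. Of the 3 DOX/IgG1 tumors 2 lay below all IgG1 tumors, and IgG1 replicate 1 lay far below the other IgG1 tumors. Foxm1 (ENSMUSG00000001517), the transcription factor of late mitotic genes, measured 6.11, 8.34 and 15.03 TPM in IgG1, 7.28, 10.4 and 8.75 in anti-PD-1, 16.7, 5.77 and 5.22 in DOX/IgG1 and 14.1, 18.95 and 11.6 in DOX/anti-PD-1. Its lowest tumors were again DOX/IgG1 replicates 2 and 3. Anln (ENSMUSG00000036777), the anillin scaffold of the contractile ring, measured 17.9, 31.2 and 26.7 TPM in IgG1, 15.8, 34.3 and 22.6 in anti-PD-1, 39.5, 30.5 and 27.0 in DOX/IgG1 and 30.3, 24.2 and 27.1 in DOX/anti-PD-1. Anln had the smallest ratio of highest to lowest tumor of the 39 genes, between 39.5 and 15.8 TPM, and was not low in DOX/IgG1 replicate 2. Ect2, the activator of RhoA at the division plane, ranged from 6.56 TPM in that tumor to 36.0 TPM in DOX/IgG1 replicate 1.

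**Figure D3:**
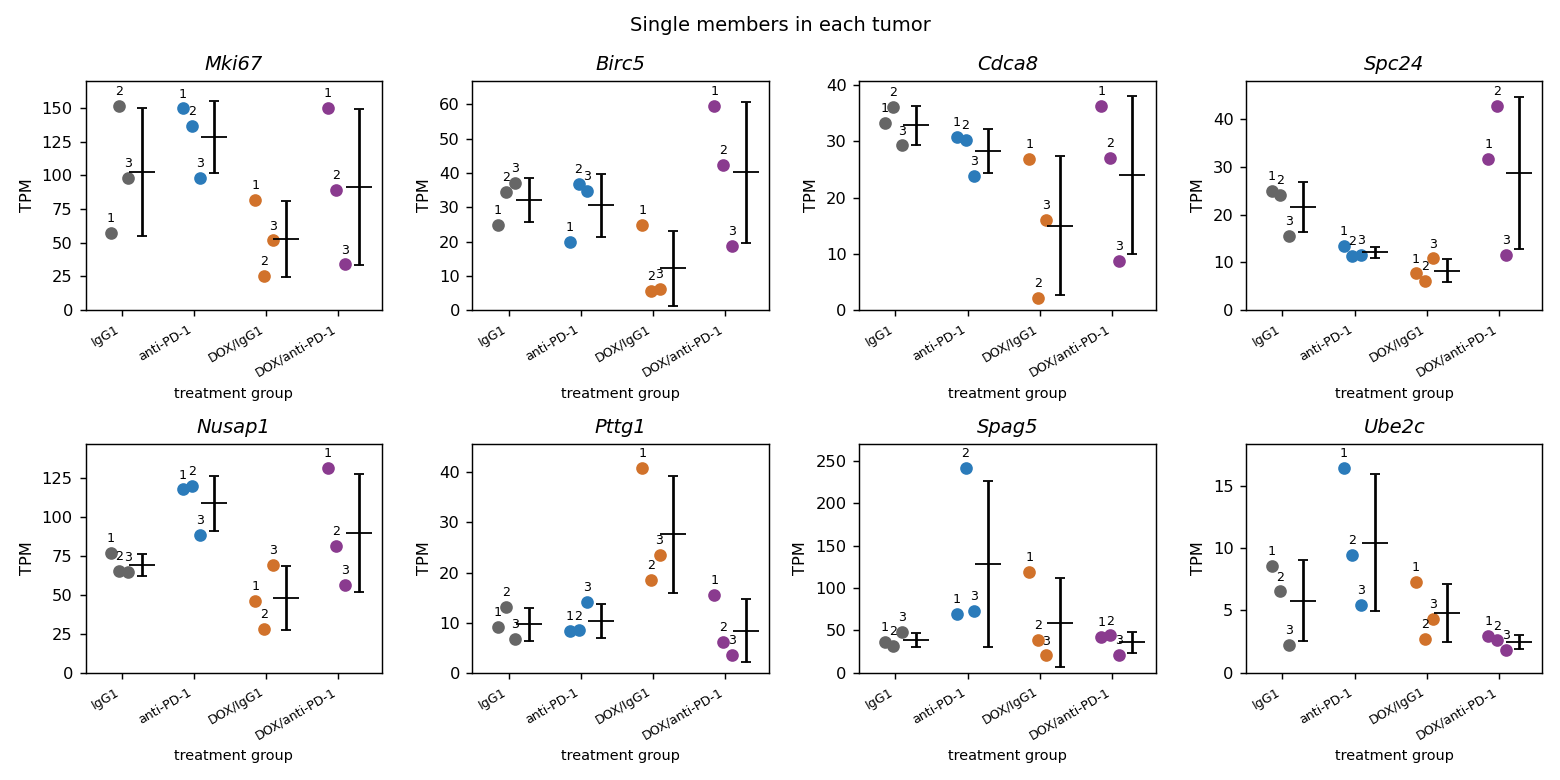
TPM of 8 of the genes in each tumor (points, with replicate numbers) by treatment group, with the group mean and SD (n = 3) beside them. Pttg1 is highest in the 3 DOX/IgG1 tumors, at 18.5 to 40.8 TPM, while Birc5, Cdca8 and Spc24 have their lowest tumor, DOX/IgG1 replicate 2, there at 5.53, 2.14 and 6.13 TPM.

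Doxorubicin under the control antibody was asked about by DOX/IgG1 against IgG1. Here 34 of the 39 genes had a lower mean log2(TPM + 1) and 5 a higher one, with a median log2 fold change of -0.38, where the median over all 13874 genes tested was 0.12. By mean TPM 29 were lower and 10 higher, as Ccnb2, Cdk1, Kif23, Kif2c and Nuf2 had a higher mean TPM and a lower mean log2(TPM + 1). Birc5 had the largest negative log2 fold change, -1.62 (SE 0.52, limma adjusted p = 0.533, -2.26 to -1.26 when each tumor was left out), and it was lower in 2 of 3 tumors than every IgG1 tumor. Pttg1 had the largest positive value, 1.39 (SE 0.39, limma adjusted p = 0.479, 1.08 to 1.63 with each left out), with all 3 tumors above all IgG1 tumors. Mki67 had a log2 fold change of -0.98 (SE 0.47, limma adjusted p = 0.667, -1.37 to -0.54). The test was limma across all genes tested, each with 1 TPM or more in at least 3 of the 6 tumors, and a gene was called at a Benjamini-Hochberg adjusted p below 0.1 with an absolute log2 fold change above 1. Of the 39 genes 0 were called, and of all genes 5 (0.036%), which were Hist1h2af, Smr3a, Bpifa2, Saa2 and Saa1, named here after their values were seen. At an unadjusted p below 0.05 there were 4 of the 39 (Plk1, Birc5, Pttg1 and Spc24), against 7.73% of all genes. The groups did not overlap for 1 gene that was higher (Pttg1), against 9.31% of all genes, and for 4 that were lower (Plk1, Tpx2, Spc24 and Cdca8), against 4.64%. For these genes the two-sided exact permutation test gives p = 0.1, the smallest possible with 3 against 3 tumors. These values rest on single tumors. Without DOX/IgG1 replicate 1 the median was -0.69, Birc5 was called (log2 fold change -2.26, limma adjusted p = 0.0389, with 0.0389 to 0.860 over all alternatives), 13 of the 39 genes had an unadjusted p below 0.05, against 1804 of all 13874 genes, and 122 of all genes were called. Without DOX/IgG1 replicate 2 the median was -0.005 and 2 of all genes were called. Without DOX/IgG1 replicate 3, or without any IgG1 replicate, 0 of all genes were called.

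Under anti-PD-1, the same question was asked by DOX/anti-PD-1 against anti-PD-1. Of the 39 genes 19 were higher and 20 lower, by mean log2(TPM + 1), with a median log2 fold change of -0.01, against 0.11 over the 13736 genes tested. Ube2c had the largest negative value, -1.63 (SE 0.45, limma adjusted p = 0.479, -1.98 to -1.27 when each tumor was left out), with all 3 tumors below all anti-PD-1 tumors, and Spag5 followed with -1.62 (SE 0.48, limma adjusted p = 0.488, -1.93 to -1.04). Spc24 had the largest positive value, 0.9997 (SE 0.44, limma adjusted p = 0.577), and 1 tumor moved it to as little as 0.63 or as much as 1.53. By limma 0 of the 39 genes and 0 of all genes (0.0%) were called. At an unadjusted p below 0.05 there were 4 (Ttk, Ube2c, Spc24 and Spag5), against 8.63% of all genes. The groups did not overlap for 2 genes that were higher (Ttk and Foxm1), against 11.1%, and for 2 that were lower (Ube2c and Spag5), against 3.84%. The sign of the median turned without anti-PD-1 replicate 2 (0.11) and without DOX/anti-PD-1 replicate 3 (0.24).

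The antibody alone was compared by anti-PD-1 against IgG1. Of the 39 genes 28 were higher and 11 lower, with a median log2 fold change of 0.24, against -0.03 over the 13692 genes tested. Spag5 had the largest positive value, 1.47 (SE 0.43, limma adjusted p = 0.996, 0.89 to 1.78 when each tumor was left out), with all 3 anti-PD-1 tumors above all IgG1 tumors, as for Nusap1 at 0.64 (SE 0.23, limma adjusted p = 0.996, 0.56 to 0.77). Spc24 had the largest negative value, -0.75 (SE 0.29, limma adjusted p = 0.996, -0.96 to -0.64), with all 3 anti-PD-1 tumors below. By limma 0 of the 39 and 0 of all genes (0.0%) were called, and 4 of the 39 had an unadjusted p below 0.05 (Nusap1, Nuf2, Spc24 and Spag5), against 4.6% of all genes. The groups did not overlap for 2 that were higher (Nusap1 and Spag5), against 3.64%, and 1 that was lower (Spc24), against 6.24%. The median was 0.05 without IgG1 replicate 1 and 0.06 without anti-PD-1 replicate 2.

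The antibody on top of doxorubicin was compared as DOX/anti-PD-1 minus DOX/IgG1. Of the 39 genes 34 were higher and 5 lower, with a median log2 fold change of 0.59, against -0.04 over the 13946 genes tested. Birc5 had the largest positive value, 1.81 (SE 0.61, limma adjusted p = 0.988, 1.45 to 2.45 when each tumor was left out), and the kinetochore pair had Spc24 with 1.54 (SE 0.50, limma adjusted p = 0.988, 1.17 to 2.07) and Spc25 with 1.14 (SE 0.37, limma adjusted p = 0.988, 0.78 to 1.35). Pttg1 had the largest negative value, -1.74 (SE 0.53, limma adjusted p = 0.988, -2.25 to -1.32). By limma 0 of the 39 and 0 of all genes (0.0%) were called, and 4 of the 39 had an unadjusted p below 0.05 (Birc5, Pttg1, Spc24 and Spc25), against 4.7% of all genes. The groups did not overlap for 5 that were higher (Ttk, Tpx2, Ndc80, Spc24 and Spc25), against 4.27%, and 1 that was lower (Pttg1), against 5.95%. The median was 0.15 without DOX/IgG1 replicate 2, 0.99 without DOX/IgG1 replicate 1, 0.90 without DOX/anti-PD-1 replicate 3 and 0.39 without DOX/anti-PD-1 replicate 1. These 4 comparisons share tumors, so their values are given side by side only.

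In 1 fit of all 12 tumors, the doxorubicin effect over both antibodies was negative for 33 of the 39 genes and positive for 6, with a median of -0.25, against 0.12 over the 14735 genes tested. Cdca8 had the largest negative value, -0.996 (SE 0.47, limma adjusted p = 0.420, two-sided exact permutation p = 0.095 within each antibody), and it lay between -1.23 and -0.52 when each tumor was left out. Mki67 had -0.84 (SE 0.35, limma adjusted p = 0.364, exact permutation p = 0.07, -1.07 to -0.60 with each left out) and Ube2c -0.90 (SE 0.39, limma adjusted p = 0.380, exact permutation p = 0.065, -1.19 to -0.66). Pttg1 had the largest positive value, 0.47 (SE 0.40, limma adjusted p = 0.675, 0.23 to 0.76). Its sign differed under the antibodies, with 1.39 under IgG1 and -0.44 under anti-PD-1. By limma 0 of the 39 and 3 of all genes (0.0204%), Gas6, St3gal4 and Col27a1, were called, and 2 of the 39 (Ube2c and Mki67) had an unadjusted p below 0.05, against 12.0% of all genes. Without DOX/IgG1 replicate 1 the median was -0.43 and 212 of all genes were called, with 0 of the 39 among them. Leaving out each tumor in turn, that count over all genes ranged from 0 to 212 in this fit, and without DOX/IgG1 replicate 2 the median was -0.06 and without DOX/anti-PD-1 replicate 3 it was -0.10.

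The anti-PD-1 effect over both chemotherapy arms was positive for 36 of the 39 genes, with a median of 0.39, against -0.03 over all genes. Spc25 had the largest positive value, 0.88 (SE 0.24, limma adjusted p = 0.727, 0.69 to 0.999 when each tumor was left out), and Nusap1 had 0.77 (SE 0.23, limma adjusted p = 0.832, 0.61 to 0.89). Pttg1 had the largest negative value, -0.82 (SE 0.40, limma adjusted p = 0.999, -1.03 to -0.53). By limma 0 of the 39 and 0 of all genes (0.0%) were called, and 2 of the 39 (Nusap1 and Spc25) had an unadjusted p below 0.05, against 4.69% of all genes. The median was 0.21 without DOX/IgG1 replicate 2 and 0.58 without DOX/IgG1 replicate 1.

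The interaction term, from a separate fit of all 12 tumors, is the doxorubicin difference under anti-PD-1 minus that under IgG1. It was positive for 30 of the 39 genes, with a median of 0.30, against -0.01 over all genes. Spc24 had 2.29 (SE 0.59, limma adjusted p = 0.993, 1.92 to 2.83 when each tumor was left out) and Spag5 had -1.87 (SE 0.81, limma adjusted p = 0.993, -2.43 to -1.19), the largest values of either sign. By limma 0 of the 39 and 1 of all genes (0.00679%), Bpifa2, was called, and 5 of the 39 (Ttk, Birc5, Pttg1, Spc24 and Spag5) had an unadjusted p below 0.05, against 4.71% of all genes. The sign of the median turned without DOX/IgG1 replicate 2, at -0.07, and the median was 0.725 without DOX/IgG1 replicate 1.

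**Figure D4:**
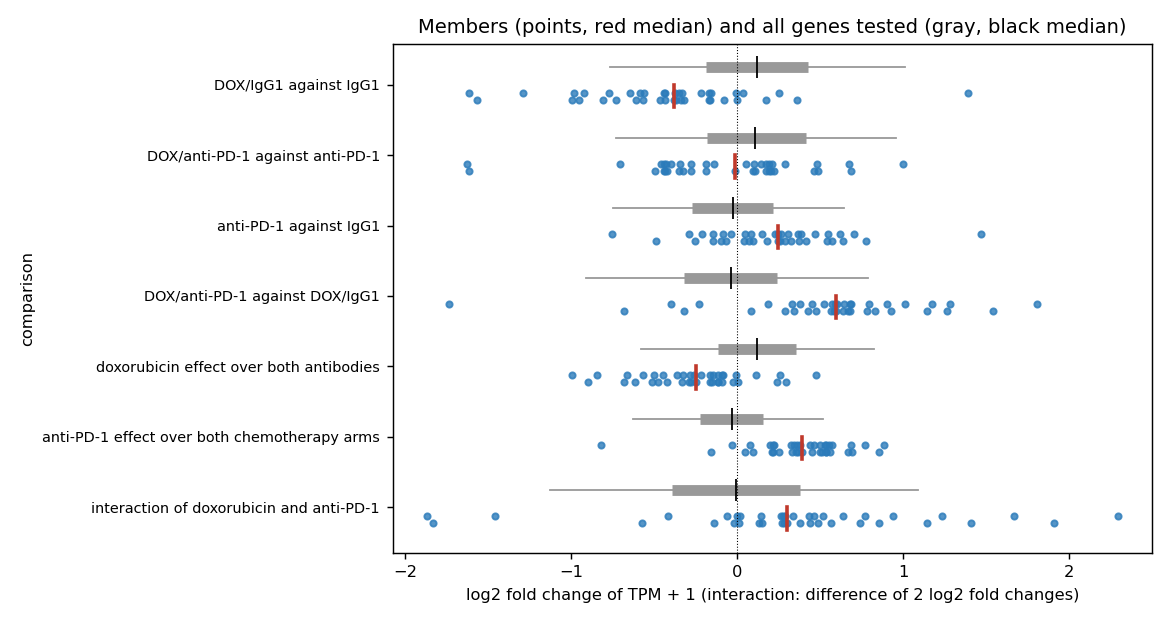
Log2 fold changes of the 39 genes (blue points, red median) in 7 comparisons, above them the middle of all genes tested (gray, black median), with a dotted line at 0. The median of the 39 genes is -0.38 for DOX/IgG1 against IgG1 and 0.59 for DOX/anti-PD-1 minus DOX/IgG1, and 0 of the 39 genes are called in any of the 7.

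Other cell cycle genes were counted in the same way. Of the 83 other mitotic genes tested in DOX/IgG1 against IgG1, 54 were lower and 29 higher (median -0.22), and 29 of 44 S phase and replication genes were lower (median -0.15), where 5467 of all 13874 genes were lower and 8407 higher (median 0.12). Of 22 regulators of mitotic transcription 13 were higher (median 0.03), a share like that of all genes, and of 11 cell cycle inhibitors 9 were (median 0.33). Between the doxorubicin groups, in DOX/anti-PD-1 minus DOX/IgG1, 71 of 84 other mitotic genes (median 0.37), 41 of 44 S phase genes (median 0.43) and 13 of 22 regulators (median 0.13) were higher, and 9 of 11 inhibitors were lower (median -0.45), where 6460 of all 13946 genes were higher and 7486 lower (median -0.04). In DOX/anti-PD-1 against anti-PD-1 the medians were -0.01, 0.20, 0.22 and -0.04, in the same order of lists. For anti-PD-1 against IgG1 they were 0.23, 0.17, 0.10 and 0.38. By limma 0 genes of these 4 lists were called in any comparison. At an unadjusted p below 0.05 in DOX/IgG1 against IgG1 there were 4 of the 83 other mitotic genes, 1 of the 44 S phase genes, 2 of the 22 regulators and 4 of the 11 inhibitors, against 7.73% of all genes. Those 4 of the inhibitor list were higher and include Cdkn1a and Sesn2, both p53 targets.

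The S phase genes spread less over the DOX/IgG1 tumors than the mitotic ones: their mean log2(TPM + 1) was 4.16, 3.61 and 3.85 in replicates 1 to 3, and their median SD was 0.45 where that of the 39 genes was 0.83. The other mitotic genes had means of 4.05, 3.06 and 3.73 and a median SD of 0.69, so DOX/IgG1 replicate 2 was the lowest of the 12 tumors for both lists. The regulators had means of 4.40, 4.27 and 4.21 in the DOX/IgG1 tumors, and the inhibitors 4.54, 4.21 and 4.18. In DOX/anti-PD-1 the median SD was 0.48 for the S phase genes, 0.48 for the other mitotic genes and 0.65 for the 39 genes. Differences in spread between the lists were not tested.

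Among the inhibitors, Cdkn1a (p21), a target of p53 that blocks cyclin-dependent kinases, measured 15.2, 12.4 and 8.99 TPM in IgG1 tumors, 14.02, 10.7 and 29.3 in anti-PD-1, 54.8, 36.4 and 29.7 in DOX/IgG1 and 24.0, 13.7 and 67.6 in DOX/anti-PD-1. All 3 DOX/IgG1 tumors lay above all IgG1 tumors. The log2 fold change was 1.63 (SE 0.34, limma adjusted p = 0.453, 1.39 to 1.82 when each tumor was left out), and the doxorubicin effect was 1.19 (SE 0.36, limma adjusted p = 0.240, exact permutation p = 0.03, 0.96 to 1.46 with each left out). DOX/anti-PD-1 replicate 3, low in the mitotic genes, had the highest Cdkn1a of the 12, yet DOX/IgG1 replicate 1, high in the mitotic genes, had the next highest. Sesn2, another p53 target placed in the inhibitor list, had a doxorubicin effect of 0.83 (SE 0.32, limma adjusted p = 0.336, 0.60 to 1.01). Cdkn2a and Cdkn2b, which encode inhibitors of Cdk4 and Cdk6, had -0.74 (SE 0.57, -1.20 to -0.36) and -0.56 (SE 0.60, -0.93 to -0.03), so 1 tumor moved both by much. Cdkn2a had 0.33 under IgG1 and -1.81 under anti-PD-1, and both genes were at 0 in DOX/anti-PD-1 replicate 1.

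Of the other mitotic genes, Fbxo5, an inhibitor of the anaphase-promoting complex, had the most negative doxorubicin effect, -1.21 (SE 0.36, limma adjusted p = 0.225, exact permutation p = 0.01, -1.46 to -0.94 when each tumor was left out). Its TPM was 1.31, 4.94 and 5.89 in DOX/IgG1 tumors against 11.9, 11.6 and 16.7 in IgG1 tumors, with no overlap. Cks2, a Cdk1 subunit, had -1.08 (SE 0.53, -1.56 to -0.81), and was at 0 in DOX/IgG1 replicates 1 and 2. Ckap2, a spindle protein, and Nsl1, of the Mis12 kinetochore complex, had the most positive values, 0.66 (SE 0.28, 0.52 to 0.86) and 0.90 (SE 0.48, 0.55 to 1.25). In the S phase list Gins1, of the replicative helicase, had -0.88 (SE 0.50, -1.16 to -0.54), with 0 TPM in DOX/IgG1 replicate 1, and Ccne1, cyclin E, had -0.65 (SE 0.31, -0.84 to -0.47), while Pold1, a DNA polymerase, had 0.43 (SE 0.41, 0.22 to 0.66) and Ung, a uracil glycosylase, 0.63 (SE 0.41, 0.36 to 0.87). Among the regulators E2f2 had -0.65 (SE 0.39, -0.86 to -0.43), E2f8 -0.29 (SE 0.37, -0.52 to -0.04), E2f7 0.42 (SE 0.35, 0.18 to 0.56) and Rbbp4, a subunit of MuvB, 0.45 (SE 0.18, limma adjusted p = 0.335, 0.37 to 0.53). The signs under the 2 antibodies differed for E2f2 (-1.43 with IgG1, 0.13 with anti-PD-1) and E2f7 (-0.10 and 0.94). Mybl2, or B-Myb, which works with MuvB, had 0.27 (SE 0.30, limma adjusted p = 0.763, 0.06 to 0.44). None of these genes was called.

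**Figure D5:**
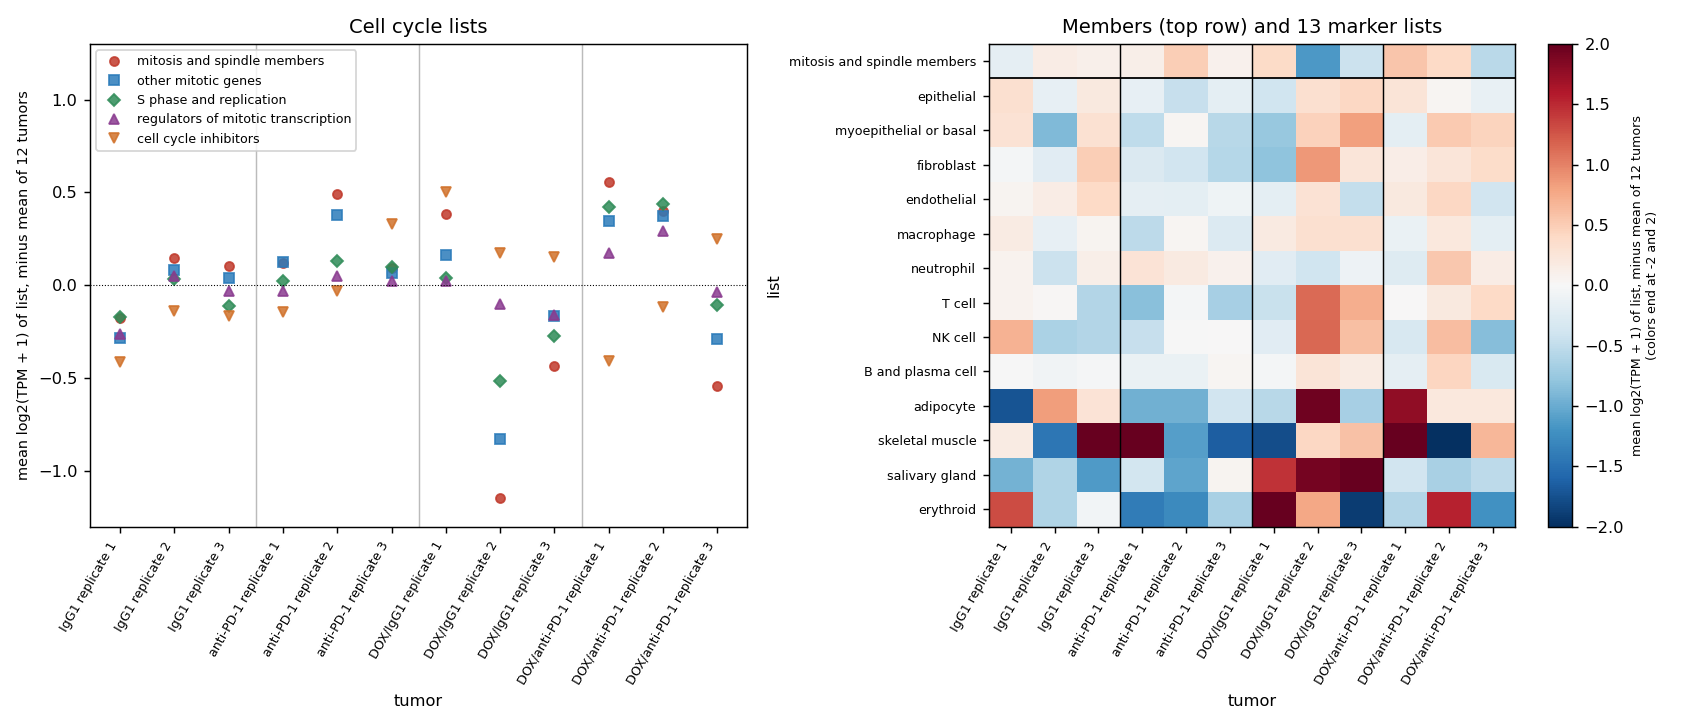
Left, the mean log2(TPM + 1) of the 39 genes and of 4 other cell cycle lists in each tumor, and right, that of the 39 genes and 13 marker lists, both minus the list's mean over the 12 tumors (colors end at -2 and 2). In DOX/IgG1 replicate 2 the 39 genes are lowest, at a mean of 3.14, and the fibroblast, T cell and adipocyte markers are at their highest, with sums of 1844, 62.6 and 866 TPM.

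Markers of cell types also differed between these tumors. The epithelial markers summed to 3856, 2660 and 3316 TPM in IgG1, 2948, 2262 and 2524 in anti-PD-1, 2203, 3460 and 4008 in DOX/IgG1 and 3278, 2930 and 2422 in DOX/anti-PD-1. In anti-PD-1 against IgG1, where 28 of the 39 genes were higher, all 8 epithelial markers were lower (median -0.27), Krt19 and Krt7 at an unadjusted p below 0.05, and 0 were called. In DOX/IgG1 against IgG1 5 of the 8 were lower (median -0.19), in DOX/anti-PD-1 against anti-PD-1 3 (median 0.145) and in DOX/anti-PD-1 minus DOX/IgG1 6 (median -0.04). Epcam, lower in the first of these, and Krt19 and Cldn4, higher in the second, had an unadjusted p below 0.05. For anti-PD-1 against IgG1, all 8 fibroblast (median -0.40), 7 of 8 macrophage (-0.24) and 6 of 7 endothelial markers (-0.45) were also lower. All 5 erythroid (-1.08) and 6 of 7 adipocyte markers (-0.56) were lower as well. The NK cell (0.45) and salivary gland (0.77) medians were positive there, but each rested on 2 tested markers, for NK cells 1 higher and 1 lower. The neutrophil (0.23, 2 tested) and B and plasma cell (0.48, 1 tested) medians were also positive. For DOX/anti-PD-1 against anti-PD-1, all 8 fibroblast (median 0.66), all 7 adipocyte (1.39) and all 7 myoepithelial or basal markers (0.47) were higher. The T cell median was 0.98, with 4 of 6 tested markers higher. The NK cell median was -0.13, with 2 of 4 tested markers higher. By limma 0 markers of any list were called in anti-PD-1 against IgG1 or in DOX/anti-PD-1 against anti-PD-1. Of the epithelial markers, 0 were called in any pairwise comparison. All 8 fibroblast markers were above 0 in each tumor, and they summed to 544, 1844 and 1297 TPM in DOX/IgG1 replicates 1 to 3, with Col3a1 most abundant in replicate 1 and Dcn in the others. The sums were 1212, 1157 and 1820 TPM in IgG1, 935, 855 and 690 in anti-PD-1 and 1080, 1420 and 1589 in DOX/anti-PD-1. DOX/IgG1 replicate 2, lowest in the mitotic genes, thus had the highest fibroblast sum, and DOX/IgG1 replicate 1 the lowest. The 8 T cell markers summed to 16.6, 62.6 and 49.5 TPM in DOX/IgG1, with Cd3d and Cd2 at 0 in replicate 1 and Cd3d in replicate 3. They summed to 26.8, 24.2 and 9.84 TPM in IgG1, with Cd3d and Cd3g at 0 in replicate 2 and Cd3g in replicate 3, and to 9.02, 21.7 and 10.3 in anti-PD-1, with Cd3d, Cd3e, Cd8a and Cd8b1 at 0 in replicate 1, Cd3d in replicate 2 and Cd3d and Cd2 in replicate 3. In DOX/anti-PD-1 they summed to 22.6, 29.1 and 39.3, with Cd4, Cd3d and Cd2 at 0 in replicates 1, 2 and 3. The 3 tumors with the highest T cell sums were thus the 3 with the lowest means of the mitotic genes. Cd3e was the most abundant T cell marker in DOX/IgG1 replicates 2 and 3. NK cell markers summed to 9.96, 38.4 and 23.8 TPM in DOX/IgG1 and to at most 20.6 TPM elsewhere, with Gzma most abundant in replicates 2 and 3.

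Adipocyte markers, led by Cfd in each tumor, summed to 181, 866 and 137 TPM in DOX/IgG1, 830, 297 and 237 in DOX/anti-PD-1, 99.3, 330 and 244 in IgG1 and 149, 101 and 171 in anti-PD-1. Both the lowest tumor in the mitotic genes and the highest, DOX/anti-PD-1 replicate 1, had high adipocyte sums. Myoepithelial or basal markers, led by Acta2 in 11 of the tumors, summed to 219, 589 and 881 TPM in DOX/IgG1, 346, 423 and 531 in DOX/anti-PD-1, 403, 168 and 369 in IgG1 and 183, 285 and 265 in anti-PD-1. Macrophage markers, with all 8 above 0, lay between 248 and 431 TPM, and endothelial markers, with all 7 above 0, between 91.2 and 170 TPM. Neutrophil markers summed to 1.48 to 14.2 TPM, with Ly6g at 0 in each tumor, and B and plasma cell markers to 1.23 to 14.7 TPM. Skeletal muscle markers ranged from 0.27 to 732 TPM. Salivary gland markers summed to 60.1, 98.0 and 114 TPM in DOX/IgG1 and to at most 23.3 TPM elsewhere, and Smr3a (log2 fold change 3.87, SE 0.43, limma adjusted p = 0.0334) and Bpifa2 (4.73, SE 0.53, limma adjusted p = 0.0334) were called in DOX/IgG1 against IgG1. The part of these cell types and of the libraries that stand apart in the levels of the mitotic genes was not tested.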

How the data were processed

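RNA of 12 whole PyMT tumors was sequenced. Per the labels and the study's methods, reads were mapped with STAR to mm10 and quantified with RSEM, and the authors deposited log2(TPM + 1) for 21960 genes per tumor. The values were read with a decimal comma and turned back to TPM for levels. Fits used limma 3.58.1 in R 4.3.3 (lmFit, eBayes with trend) on log2(TPM + 1), with 4 pairwise comparisons of 6 tumors each. The doxorubicin and anti-PD-1 effects came from 1 fit of all 12 tumors with both factors and no product. Their interaction came from a separate fit of all 12 tumors that added the product. Genes with 1 TPM or more in at least 3 tumors were tested, p was adjusted over all of them by the Benjamini-Hochberg method, and the fit was tested on simulated data. Single genes also had two-sided exact permutation tests, with 20 arrangements of 3 against 3 tumors, or 400 within each antibody (smallest p 0.005). Python 3.11.15, pandas 2.3.3, numpy 2.4.6 and matplotlib 3.10.9 were used for the rest.

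The 39 genes and all lists were chosen with earlier results of these data known. The other lists were other mitotic genes (84), S phase and replication (44), regulators of mitotic transcription (22), cell cycle inhibitors (11), and markers of epithelial, myoepithelial or basal, fibroblast, endothelial, macrophage, neutrophil, T, NK, B and plasma cells, adipocytes, skeletal muscle, salivary gland and erythroid cells. The salivary marker Muc10 was not found, and 2 genes were matched by identifier. Values in every tumor are given for the most abundant gene of each role, the largest difference of either sign in each pairwise comparison and in the doxorubicin effect, Mki67 and Foxm1. Of the other cell cycle lists, the 2 largest differences of either sign in the doxorubicin effect are named, with Mybl2 and Cdkn1a. Alternatives were another pseudocount (0.1), no minimum or 5 TPM, median-of-ratios scaling, 1 fit of all tumors, a replicate block, no trend, and leaving out each tumor.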

Additional observations from a re-analysis of the deposited data

How the results depend on the processing

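No member was called under any setting but 1: without DOX/IgG1 replicate 1, the members called in DOX/IgG1 against IgG1 numbered 1 (Birc5, log2 fold change -2.26, limma adjusted p = 0.0389), so that count ranged from 0 to 1 when each tumor was left out, and the cause was not tested. Of the alternatives to the counts and medians, 214 kept their side of the threshold or moved by less than the spread between replicates and 1 did not. That limit is wide for a median, and when each tumor was left out the medians ranged from -0.69 to -0.005 for DOX/IgG1 against IgG1 and crossed 0 for DOX/anti-PD-1 against anti-PD-1 (-0.17 to 0.24) and for the interaction (-0.07 to 0.725). For single named genes 139 stayed on their side and 1, the same Birc5 value, did not. The smallest exact p with 3 against 3 tumors, 0.1, and the unknown depth limit what can be told for a single gene. Replicate numbers were not taken as pairs. The correlation of same-numbered tumors after group means were removed lay between -0.096 and 0.134, over 0.1 in 4 of 18 pairs, and the same number was the best match in 7 of 18, though in 3 of 3 for IgG1 with DOX/IgG1 (correlations 0.125, 0.0034 and 0.106). With replicate number as a block, 0 members were called in DOX/IgG1 against IgG1 and the median was -0.38, with 2 of all genes called in place of 5. Without the trend 13 of all genes were called there. Median-of-ratios scaling moved the median over all genes from 0.12 to 0.01 in that comparison, where the median of the 39 genes was then -0.49, from 0.11 to -0.01 in DOX/anti-PD-1 against anti-PD-1 (39 genes -0.14), and from 0.12 to 0.01 for the doxorubicin effect (39 genes -0.36). The range of the tumor means was 1.82 with the median over members or with scaling and 1.85 with a pseudocount of 0.1, with DOX/IgG1 replicate 2 lowest in each.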
